A study of Drosophila melanogaster with 13 samples.

Results

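Basement membranes are thin sheets of extracellular matrix in which a network of laminin and a network of collagen IV are joined by linker proteins and filled with the proteoglycan perlecan. In Drosophila the collagen IV chains Col4a1 and vkg (viking) are known to assemble into mixed trimers, made mainly by the fat body and by blood cells (haemocytes), while glia and migrating haemocytes contribute to the sheath around the larval brain. The genes described here are 9 that encode main components of this sheet. They were chosen with earlier results of these data known. They are both collagen IV chains, the laminin chains LanA, LanB1 and LanB2, the perlecan gene trol, the nidogen gene Ndg, the collagen-binding protein SPARC and the papilin gene Ppn. All 9 were found by symbol among 17633 genes in the count table.

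RNA was measured in flow-sorted clones from the optic lobe, the visual part of the brain, of Drosophila larvae at the wandering L3 stage. The genotypes of the clones were WT, the lola mutant lola[E76] and the nerfin-1 mutant nerfin-1[159], and each gave 3 libraries. Both proteins act in neurons as transcription factors of the zinc finger class. Binding of Lola.N, an isoform of Lola, was mapped by Targeted DamID, in which a DNA methylase fused to the protein marks the DNA near it, in 2 replicates (N1 and N2) of L3 brains. The fusion was driven by ey16F10-GAL4, an eyeless driver, so that these peaks come from eyeless-GAL4 cells and not from the sorted clones. The count columns carry the tag 42D for WT and lola[E76] clones and 2A for nerfin-1[159] clones. A WT clone with the tag 2A was not analysed here, so any effect of that difference in stock and loss of Nerfin-1 cannot be told apart. Each RNA sample pooled sorts of different days without naming separate animals, and p-values therefore reflect only how these samples vary, which may be technical.

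Each library held 3465601 to 5200223 counts, so that 3 counts corresponded to 0.568 to 0.849 CPM (the share of a library's counts, scaled by TMM). QuantSeq counts short tags from transcript 3′ ends, so CPM are not divided by gene length. Among lola[E76] libraries, replicate 1 stood apart, at 40.4 on the third principal component against -39.2 and -28.7. The nerfin-1 transcript fell from 283.6 ± 25.8 CPM in WT clones to 9.10 ± 8.38 CPM in nerfin-1[159] clones (SD, n = 3 each), while the lola transcript was at 1763 ± 173 and 1984 ± 222 CPM for WT and lola[E76] clones. Whether its tags lie in the part that lola[E76] alters is not stated, so its level is no check of that genotype. The nerfin-1 transcript was at 139.1 ± 15.0 CPM in lola[E76] clones, a log2 difference from WT of -1.03 ± 0.28 (SE; edgeR adjusted p = 0.0342), whose call ended when any WT or lola[E76] library was left out (edgeR adjusted p up to 0.121), without TMM (edgeR adjusted p = 0.0527) and with DESeq2 (adjusted p = 0.404). The lola transcript rose to 2565 ± 117 CPM in nerfin-1[159] clones (0.54 ± 0.10, edgeR adjusted p = 0.00124). As a check of the labelled tissue, 5 neuronal markers summed to 4683 to 8648 CPM over the libraries. In bulk samples of this kind, fewer cells of a type and less RNA per cell cannot be told apart.

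In lola[E76] clones LanB1, SPARC and Col4a1 rose, and Ppn and Ndg, both at 0 counts in WT, were detected in every library. In nerfin-1[159] clones Col4a1 rose and Ppn was detected, while the laminin chains and SPARC did not pass the test against WT. The summed level of the 9 genes was 51.6, 61.7 and 89.4 CPM in the WT libraries. It was 283.9, 234.0 and 266.3 CPM in lola[E76] libraries and 259.9, 305.6 and 329.7 CPM in nerfin-1[159] libraries. Both mutants lay above WT in every library, but the sums were made up differently. Col4a1 supplied 13.9%, 8.66% and 10.7% of these counts in lola[E76] libraries and 72.3%, 83.2% and 80.8% in nerfin-1[159] libraries. Without Col4a1, the other 8 genes summed to 213.7 to 244.4 CPM in lola[E76] libraries and to 51.4 to 71.9 CPM in nerfin-1[159] libraries. The latter lay within the WT range of 49.97 to 82.2 CPM.

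**Figure D1:**
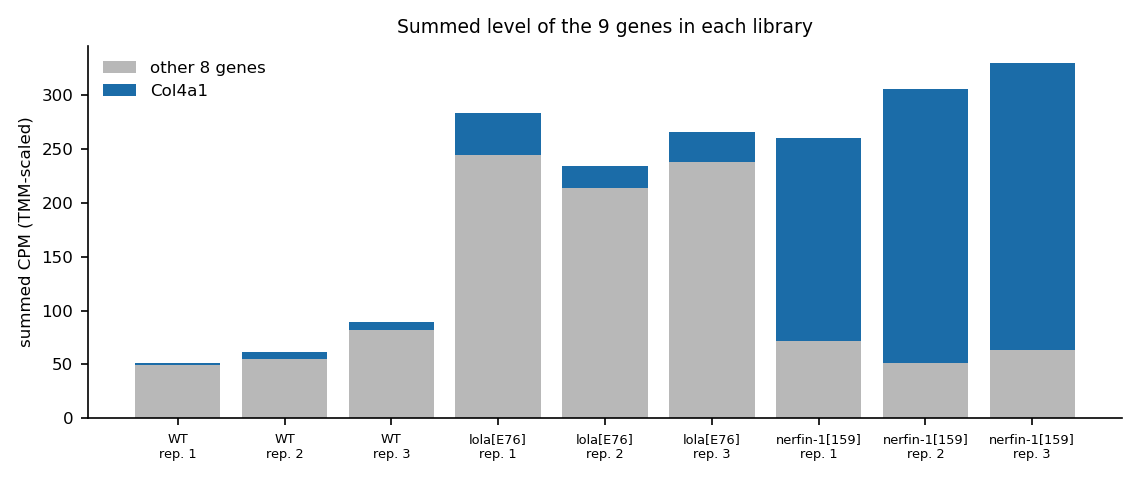
Summed CPM of the 9 basement membrane genes in each of the 9 libraries, with Col4a1 in blue and the other 8 genes in grey. The nerfin-1[159] bars of 259.9 to 329.7 CPM are mostly Col4a1, while those of lola[E76] clones, 234.0 to 283.9 CPM, are mostly other genes.

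In the test of lola[E76] against WT, 4 of 8 tested genes of the sheet were called higher and 0 lower, where 3.58% of all tested genes were called higher, 2.91% lower and 6.5% were called in either direction. Against WT, 2 of the 8 were called higher in nerfin-1[159] clones and 0 lower, where 5.66% of all tested genes were called higher, 6.27% lower and 11.9% in either direction. Between the mutants, 1 of the 8 was called higher in nerfin-1[159] clones (6.94% of all tested genes) and 3 lower (8.58% of all tested genes), with 15.5% called in either direction. No lower call was made by DESeq2 or limma voom against WT either, and at an unadjusted p under 0.05 in edgeR 5 and 3 of the 8 genes, Ppn among them, differed from WT in lola[E76] and nerfin-1[159] clones. The median log2 difference over the 8 genes was 1.68 for lola[E76] minus WT, 0.06 for nerfin-1[159] minus WT and -1.13 for nerfin-1[159] minus lola[E76], against -0.002, 0.002 and 0.005 over all tested genes. Both comparisons with WT use the same WT libraries. The genes were chosen with earlier results of these data known, so these counts and medians only describe a chosen set. Ndg had too few counts to be tested. Ppn passed the filter only through the mutant libraries, so it had to differ from WT once tested, and its call is no support. Without Ppn, 3 of 7 tested genes were called higher in lola[E76] clones, with a median of 1.31, and 1 of 7 in nerfin-1[159] clones, with a median of -0.23.

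**Figure D2:**
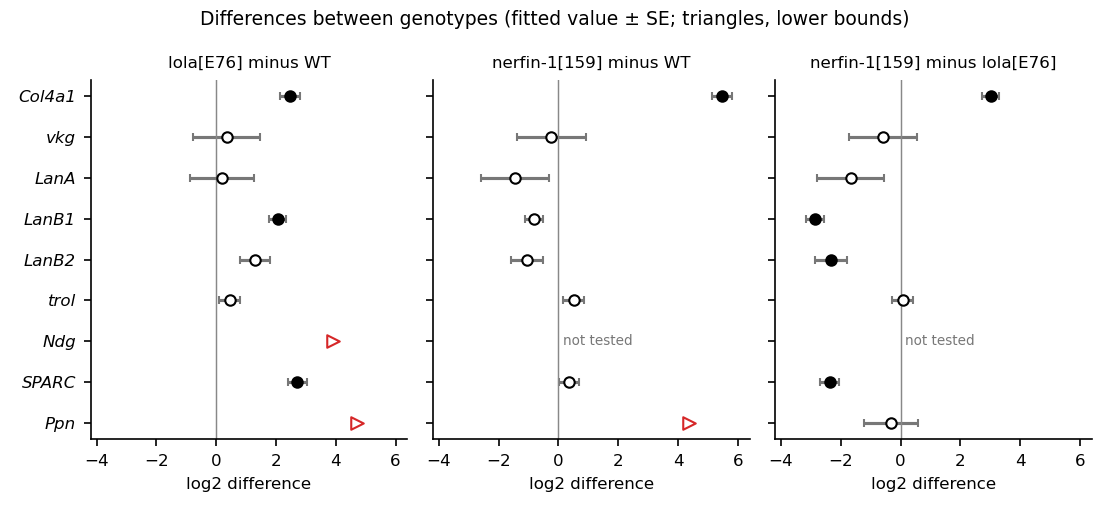
Log2 difference of each gene in the 3 comparisons, with the standard error as a bar and filled symbols for an adjusted p under 0.05. Open triangles give lower bounds against a WT group at 0 counts, with no test. Col4a1 lies at 2.46 and 5.47 above WT, whereas LanB1 and SPARC lie at 2.06 and 2.72 in lola[E76] clones and on either side of 0 in nerfin-1[159] clones.

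Col4a1, the collagen IV alpha 1 chain, had 6, 31 and 38 counts in the WT libraries (5.09 ± 3.03 CPM, SD, n = 3). It had 163, 94 and 128 counts in lola[E76] libraries (29.4 ± 9.62 CPM) and 664, 1014 and 999 counts in nerfin-1[159] libraries (236.2 ± 42.1 CPM). The 3 genotypes did not overlap, with WT lowest, lola[E76] next and nerfin-1[159] highest, and libraries lay wholly higher than WT for 12.7% of all tested genes in lola[E76] clones and 14.9% in nerfin-1[159] clones. The rise over WT was 2.46 ± 0.33 (log2, SE) in lola[E76] clones (5.5-fold; adjusted p = 9.36e-05 by edgeR's quasi-likelihood test, Benjamini-Hochberg adjusted). It was 5.47 ± 0.34 in nerfin-1[159] clones (44.3-fold; edgeR adjusted p = 4.51e-09). The mutants differed from each other by 3.01 ± 0.28 (8.04-fold; edgeR adjusted p = 4.88e-07). WT replicate 1 was the lowest WT library, and without it the rise in nerfin-1[159] clones was 5.10.

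vkg, the alpha 2 chain that pairs with Col4a1, was low in all genotypes. It had 7, 28 and 12 counts in WT (3.33 ± 2.17 CPM), 48, 0 and 6 in lola[E76] (4.32 ± 6.35 CPM) and 13, 12 and 7 in nerfin-1[159] libraries (2.85 ± 0.918 CPM). The genotypes overlapped, and 48 of the 54 counts in lola[E76] clones came from replicate 1, the library that stood apart. The differences from WT were 0.36 ± 1.12 for lola[E76] and -0.23 ± 1.14 for nerfin-1[159] clones (log2, SE; edgeR adjusted p = 0.922 and 0.95). With counts this low and this uneven between libraries, a change of vkg as large as that of Col4a1 in lola[E76] clones, which lies within 2 standard errors of the value for vkg, was not detectable.

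The ratio of Col4a1 to vkg tags within a library does not depend on scaling. It was 0.857, 1.11 and 3.17 in the WT libraries and 51.1, 84.5 and 143 in nerfin-1[159] libraries. The groups did not overlap, and the mean log2 ratio went from 0.53 ± 1.00 to 6.41 ± 0.74 (SD, n = 3 each), a difference of 5.88. An exact permutation test, two-sided, gave p = 0.1, the smallest that 3 against 3 libraries allow. No such ratio could be formed over the lola[E76] libraries, since vkg had 0 counts in replicate 2.

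**Figure D3:**
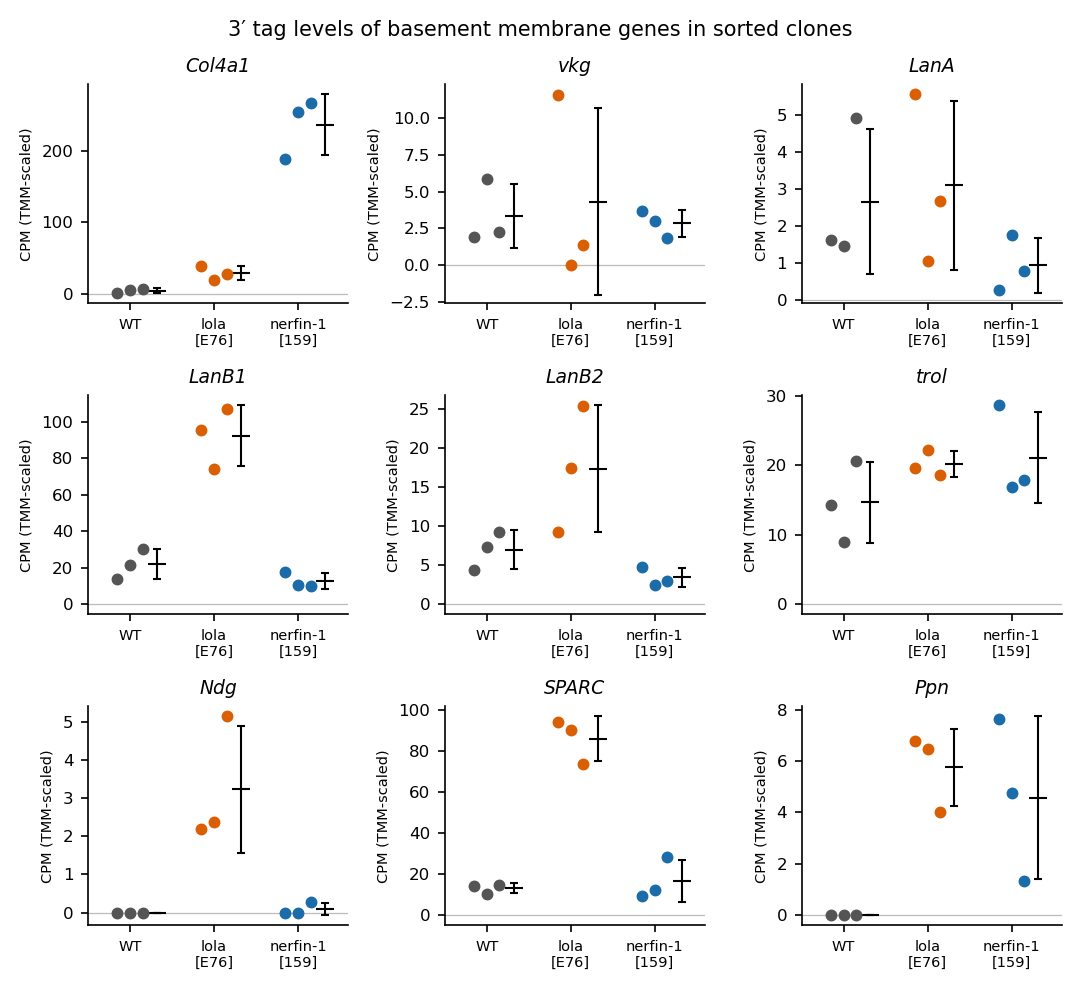
CPM of each gene in every library, 1 point a library, with the mean and SD (n = 3) beside each genotype. Each panel has its own axis. Col4a1 separates all 3 genotypes, LanB1 and SPARC separate lola[E76] from the rest, and vkg, LanA and trol overlap.

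The laminins are trimers of an alpha, a beta and a gamma chain. LanB1, the beta chain, had 51, 103 and 160 counts in WT (21.9 ± 8.28 CPM), 395, 343 and 478 in lola[E76] (92.1 ± 16.7 CPM) and 62, 41 and 38 in nerfin-1[159] libraries (12.7 ± 4.24 CPM). Every lola[E76] library lay above every other one, while WT and nerfin-1[159] libraries overlapped. LanB1 rose by 2.06 ± 0.29 in lola[E76] clones (log2, SE; 4.18-fold; edgeR adjusted p = 0.000126). Against WT, nerfin-1[159] clones had LanB1 at -0.80 ± 0.30, which was not called (edgeR adjusted p = 0.1). That call was gained without WT replicate 1 (-1.04, edgeR adjusted p = 0.0318), without nerfin-1[159] replicate 1 (-1.11, edgeR adjusted p = 0.0349) and with no filter on low counts (-0.82, edgeR adjusted p = 0.033). LanB1 was 7.29-fold lower in nerfin-1[159] than in lola[E76] clones (-2.87 ± 0.30, edgeR adjusted p = 2.08e-06).

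LanB2, the gamma chain, had 16, 35 and 49 counts in WT (6.97 ± 2.50 CPM), 38, 81 and 114 in lola[E76] (17.4 ± 8.14 CPM) and 17, 10 and 11 in nerfin-1[159] libraries (3.42 ± 1.23 CPM). The lowest lola[E76] library, replicate 1, overlapped WT, and the difference of 1.31 ± 0.50 (log2, SE) was not called (edgeR adjusted p = 0.141). Neither was that of nerfin-1[159] minus WT, at -1.04 ± 0.53 (edgeR adjusted p = 0.266). The mutants did not overlap, and LanB2 was 5.07-fold lower in nerfin-1[159] than in lola[E76] clones (-2.34 ± 0.53, edgeR adjusted p = 0.00416), where libraries lay wholly lower for 15.4% of all tested genes.

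LanA, an alpha chain, had 6, 7 and 26 counts in WT (2.67 ± 1.96 CPM), 23, 5 and 12 in lola[E76] (3.11 ± 2.27 CPM) and 1, 7 and 3 in nerfin-1[159] libraries (0.946 ± 0.747 CPM). All genotypes overlapped. The differences from WT were 0.20 ± 1.06 and -1.46 ± 1.13 in lola[E76] and nerfin-1[159] clones (log2, SE; edgeR adjusted p = 0.951 and 0.515). With counts this low and this uneven between libraries, a change of LanA like that of LanB1 in lola[E76] clones was not detectable.

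trol encodes perlecan, the heparan sulfate proteoglycan whose mutants were first known for a small optic lobe and for neuroblasts that fail to resume division. It had 53, 43 and 109 counts in WT (14.6 ± 5.86 CPM), 81, 103 and 83 in lola[E76] (20.1 ± 1.88 CPM) and 101, 67 and 67 in nerfin-1[159] libraries (21.1 ± 6.53 CPM). The libraries overlapped, and trol was called in no comparison, with log2 differences of 0.45 ± 0.35 and 0.52 ± 0.35 (SE) from WT (edgeR adjusted p = 0.561 and 0.437).

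Ndg, the nidogen that links laminin to collagen IV, had 0 counts in each WT library, 9, 11 and 23 in lola[E76] (3.23 ± 1.66 CPM) and 0, 0 and 1 in nerfin-1[159] libraries. Every lola[E76] library lay above all others. With 3 counts over all WT libraries as the floor, Ndg was at least 14.9-fold higher in lola[E76] clones, and at least 9.20-fold without WT replicate 3 and 9.71-fold without WT replicate 2, which lower the depth of the floor. It was too low to be tested by edgeR with its filter. With no filter edgeR gave an adjusted p of 0.0844, and DESeq2 gave an adjusted p of 0.0177. Ndg lies on chromosome arm 2R, as lola does, so that for this gene loss of Lola and a variant linked to lola[E76] cannot be told apart. The same limit holds for any gene of that arm named below. Col4a1, vkg and LanB1 lie on 2L, SPARC and Ppn on 3R, and LanA and LanB2 on 3L, as nerfin-1 does. For LanA, LanB2 and any other gene of 3L, loss of Nerfin-1 and a variant linked to nerfin-1[159] likewise cannot be told apart. Whether a linked variant acts on genes of other arms was not tested.

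SPARC, a collagen-binding protein needed for collagen IV to be laid down properly, had 52, 49 and 78 counts in WT (13.0 ± 2.46 CPM), 388, 419 and 330 in lola[E76] (86.0 ± 10.8 CPM) and 33, 49 and 106 in nerfin-1[159] libraries (16.6 ± 10.2 CPM). The lola[E76] libraries were tight and lay far above the rest, while those of nerfin-1[159] clones spread on both sides of WT. SPARC rose by 2.72 ± 0.33 in lola[E76] clones (log2, SE; 6.6-fold; edgeR adjusted p = 2.45e-05). In nerfin-1[159] clones it was at 0.36 ± 0.33 (edgeR adjusted p = 0.619) and at -0.26 without replicate 3 of that genotype. It was 5.16-fold lower there than in lola[E76] clones (-2.37 ± 0.32, edgeR adjusted p = 4.13e-05; -2.98 without that replicate).

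Ppn encodes papilin, a matrix proteoglycan related to the ADAMTS proteases. It had 0 counts in each WT library, 28, 30 and 18 in lola[E76] (5.75 ± 1.51 CPM) and 27, 19 and 5 in nerfin-1[159] libraries (4.58 ± 3.16 CPM). Both mutants lay above WT in every library and overlapped with each other. By the same floor, Ppn was at least 26.3-fold higher in lola[E76] clones (76 counts against 0). The bound was 20.8-fold in nerfin-1[159] clones (51 counts against 0). No test against WT is given, since Ppn was tested at all only because it was high in the mutants. Without WT replicate 3 or WT replicate 2 the bound in lola[E76] clones was 16.3 or 17.2, and that in nerfin-1[159] clones 12.8 or 13.5. The mutants differed by -0.33 ± 0.91 (log2, SE; edgeR adjusted p = 0.867).

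The 5 genes whose log2 CPM followed that of Col4a1 most closely over the 9 libraries, by Pearson's r as a description, were Men (0.983), glu (0.973), corto (0.972), CycA (0.970) and pnut (0.966). Men encodes malic enzyme, glu a condensin subunit, CycA cyclin A and pnut a septin. They ranked the genotypes as Col4a1 did but over a smaller span, Men with means of 31.7 CPM for WT, 49.4 for lola[E76] and 94.7 for nerfin-1[159] clones, and CycA from 178 to 237 and 437 CPM. For vkg the most similar genes were CG31921 (0.947), ICA69 (0.940), CG11983 (0.923), Hs6st (0.916) and Pcd (0.913). Each of these was highest among the lola[E76] libraries in replicate 1 and low in replicate 2, the libraries with 48 and 0 counts of vkg.

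Genes that modify, cut or bind the sheet were examined as lists, chosen with earlier results of these data known. Among 17 other matrix components and matrix enzymes, 11 were tested, of which 2 rose and 1 fell in lola[E76] clones (6.5% of all tested genes called in either direction). AdamTS-B, a secreted metalloprotease of the ADAMTS family, had 0, 1 and 34 counts for WT, 197, 174 and 349 for lola[E76] and 13, 5 and 20 for nerfin-1[159]. All lola[E76] libraries lay above the rest, and almost all WT counts came from replicate 3. AdamTS-B rose by 4.49 ± 0.73 in lola[E76] clones (log2, SE; edgeR adjusted p = 0.000591), by 8.53 without that WT library and by 6.09 with limma voom. In nerfin-1[159] clones it was not called (0.50 ± 0.80, edgeR adjusted p = 0.808), but was called without WT replicate 3 (4.54, edgeR adjusted p = 0.00459). In WT only replicate 3 had more than 1 count, so AdamTS-B passed the filter only with the mutant libraries. Its calls against WT are therefore no support, and it is 1 of the 2 rises counted for lola[E76] clones.

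The matrix metalloprotease Mmp2 stood at 269.6 ± 47.9 CPM for WT, 162.3 ± 18.7 for lola[E76] and 162.7 ± 48.7 for nerfin-1[159] clones (SD, n = 3 each). It fell by 0.73 ± 0.19 (log2, SE) in both (edgeR adjusted p = 0.0236 and 0.015), as the 1 call of the list by edgeR in nerfin-1[159] clones (11.9% of all tested genes called), with 3 of 11 at an unadjusted p under 0.05, 1 called by limma voom and 2 by DESeq2. Its call in lola[E76] clones ended when replicate 1 or 3 of WT, or 1 or 2 of lola[E76], was left out (highest edgeR adjusted p = 0.122), and that in nerfin-1[159] clones without WT replicate 1 or nerfin-1[159] replicate 2 (up to 0.0774). Dg, dystroglycan, a receptor of laminin and perlecan, rose by 0.51 ± 0.15 in lola[E76] clones (edgeR adjusted p = 0.0445), a call lost when any WT library, replicate 2 or 3 of lola[E76] or replicate 3 of nerfin-1[159] was left out. Mp, a collagen of the multiplexin type, had 34, 66 and 145 counts for WT, 24, 59 and 92 for lola[E76] and 16, 23 and 26 for nerfin-1[159]. The nerfin-1[159] libraries lay wholly below WT, at -1.55 ± 0.51 (log2, SE), without passing in edgeR (adjusted p = 0.0539). Mp was called by DESeq2 (adjusted p = 0.0461), and by edgeR with the replicate block (adjusted p = 0.0414), with no filter on low counts (adjusted p = 0.0168), in a fit on these 2 groups (adjusted p = 0.0283) and without WT replicate 1 (-1.84, adjusted p = 0.033). The list medians were 0.11 and -0.40 in lola[E76] and nerfin-1[159] clones. Between the mutants AdamTS-B (-3.99 ± 0.72, edgeR adjusted p = 0.000635) and the glypican dlp (-0.89 ± 0.28, edgeR adjusted p = 0.0356) were lower in nerfin-1[159] clones, the call of dlp being lost without any of 5 of the 6 mutant libraries, all but nerfin-1[159] replicate 2.

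Genes that fold, modify and export collagen were measured in full. Of 15 tested genes of collagen processing and secretion, 0 were called by edgeR, DESeq2 or limma voom in lola[E76] clones, where edgeR called 6.5% of all tested genes. At an unadjusted edgeR p under 0.05 there were 3, and the median was -0.14. For nerfin-1[159] minus WT edgeR called 1 higher and 0 lower (11.9% of all tested genes called), with 5 at an unadjusted p under 0.05 and a median of -0.22, while DESeq2 called 1 and limma voom 2. The edgeR call was PH4alphaEFB, a prolyl hydroxylase that modifies collagen, at 23.3 ± 4.05 CPM for WT and 41.7 ± 5.29 for nerfin-1[159] clones (0.84 ± 0.24, log2, SE; edgeR adjusted p = 0.0264). This call ended without WT replicate 1 or 2 or nerfin-1[159] replicate 1 or 3 (edgeR adjusted p up to 0.15). Plod, the lysyl hydroxylase of collagen IV, was at 0.12 ± 0.36 in nerfin-1[159] minus WT (edgeR adjusted p = 0.912), and Tango1, a collagen export receptor of the endoplasmic reticulum, at -0.53 ± 0.24 (edgeR adjusted p = 0.184). The gene prtp was at 68.9 ± 9.63 CPM for WT and 43.3 ± 13.0 for nerfin-1[159] clones, at -0.67 ± 0.24 (edgeR adjusted p = 0.0792). It was called lower by limma voom (adjusted p = 0.0467), and by edgeR with no filter on low counts (adjusted p = 0.0373) or without lola[E76] replicate 1 (adjusted p = 0.0442) or nerfin-1[159] replicate 3 (-0.90, adjusted p = 0.0416). Plod, Tango1 and prtp were chosen for naming after their values were seen. Between the mutants 0 of 15 were called by the same 3 tools (15.5% of all tested genes called by edgeR), with 2 at an unadjusted edgeR p under 0.05.

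**Figure D4:**
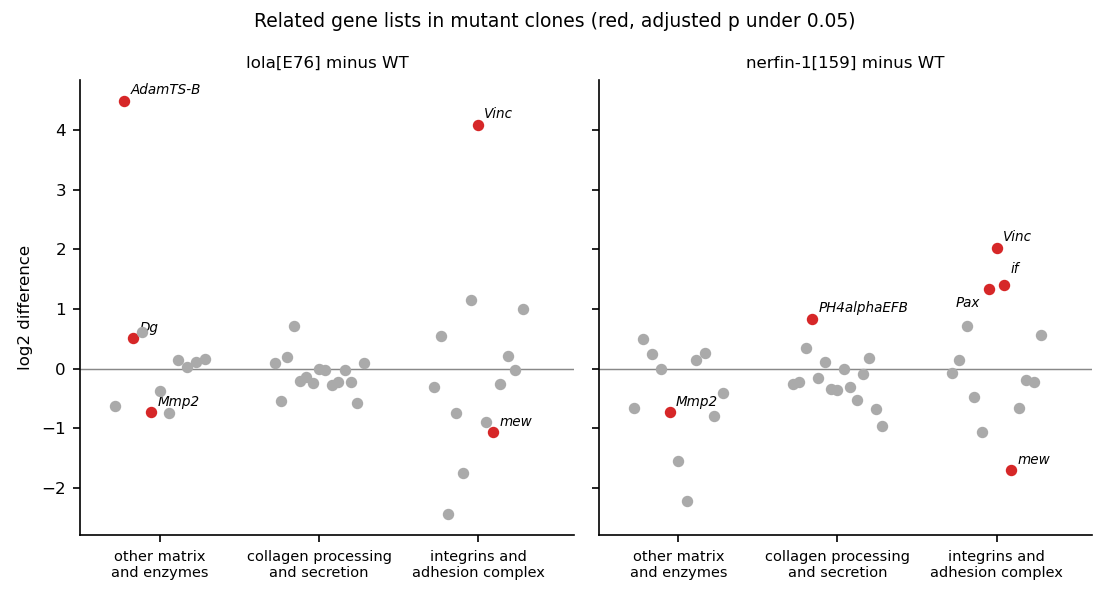
Log2 difference from WT of each tested gene of 3 related lists, with genes past an adjusted p of 0.05 in red and named. AdamTS-B and Vinc stand at 4.49 and 4.09 in lola[E76] clones, mew is lower in both mutants, and the collagen processing genes lie around 0. Vinc and AdamTS-B passed the filter only with the mutant libraries, so their calls against WT are no support.

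Among 13 tested genes of integrins and their adhesion complex, 1 rose and 1 fell in lola[E76] clones (6.5% of all tested genes called in either direction) and 3 rose and 1 fell in nerfin-1[159] clones (11.9%), with medians of -0.25 and -0.08. mew, an integrin alpha subunit that binds laminin, was at 120.0 ± 25.9 CPM for WT, 57.4 ± 12.0 for lola[E76] and 36.9 ± 4.24 for nerfin-1[159] clones. Both mutants lay below WT in every library (libraries wholly lower for 12.1% and 15.6% of all tested genes), and mew fell by 1.06 ± 0.20 and by 1.70 ± 0.21 (log2, SE; edgeR adjusted p = 0.00243 and 1.69e-05). Vinc, vinculin, had 5, 3 and 12 counts for WT, 92, 105 and 133 for lola[E76] and 18, 16 and 33 for nerfin-1[159]. The genotypes did not overlap, and Vinc rose by 4.09 ± 0.53 in lola[E76] clones (edgeR adjusted p = 6.22e-05) and by 2.03 ± 0.53 in nerfin-1[159] clones (edgeR adjusted p = 0.0154). The latter call ended without WT replicate 2 or nerfin-1[159] replicate 3, with limma voom and in a fit on these 2 groups (adjusted p up to 0.19). Vinc passed the filter only through the mutant libraries, so its calls against WT are no support. They are the 1 rise counted for lola[E76] clones and 1 of the 3 for nerfin-1[159] clones.

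The integrin alpha subunit if (inflated) had 78, 67 and 109 counts for WT, 28, 77 and 29 for lola[E76] and 191, 209 and 151 for nerfin-1[159]. The nerfin-1[159] libraries lay wholly above the others, which overlapped. if rose by 1.40 ± 0.34 in nerfin-1[159] clones (log2, SE; edgeR adjusted p = 0.00848, and 0.0585 without WT replicate 2), and it was 2.29 ± 0.35 above lola[E76] clones (edgeR adjusted p = 0.000128; 2.88 without lola[E76] replicate 2). Its difference in lola[E76] clones of -0.89 ± 0.35 was not called (edgeR adjusted p = 0.157), but was without that library (-1.48, edgeR adjusted p = 0.0146). The third rise was of Pax, paxillin (1.34 ± 0.41, edgeR adjusted p = 0.0363), lost without WT replicate 1, 2 or 3 or nerfin-1[159] replicate 2 or 3 and with limma voom. Between the mutants, Vinc (-2.05 ± 0.47, edgeR adjusted p = 0.00429) and mew (-0.64 ± 0.21, edgeR adjusted p = 0.0433) were lower in nerfin-1[159] clones, the call of mew ending in 9 alternatives (adjusted p up to 0.165), among them leaving out any of 5 of the 6 mutant libraries, all but lola[E76] replicate 1.

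Markers of other cells that make basement membrane were measured beside these genes. The 12 haemocyte markers summed to 15.9 to 24.4 CPM over WT, 11.2 to 20.6 over lola[E76] and 10.8 to 15.7 over nerfin-1[159] libraries. Of these the haemocyte receptors NimC1 and eater were at 0 in all 9 libraries, and the haemocyte factor srp was at 0 in both mutants. The haemocyte sum was thus no higher in either mutant, but most of it in every library was crq, at 14.6 ± 4.77 CPM for WT, 11.45 ± 5.50 for lola[E76] and 11.1 ± 4.47 for nerfin-1[159] clones. Over these groups 7, 7 and 8 of the 12 markers had 3 counts or fewer, so the sum says little of the others. Hml, a haemocyte clotting protein, had 1, 0 and 1 counts for WT, 12, 15 and 2 for lola[E76] and 8, 2 and 0 for nerfin-1[159]. PPO2, a prophenoloxidase of the melanisation pathway, had 10, 9 and 12 counts for WT and 0 in every mutant library. Against a floor of 3 counts over the group, it was at least 9.94-fold lower for lola[E76] and at least 8.45-fold lower for nerfin-1[159], with no test. crq, the single tested haemocyte marker, was called in no comparison by edgeR, DESeq2 or limma voom, nor at an unadjusted edgeR p under 0.05.

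The 8 fat body markers summed to 12.5 to 21.1 CPM over WT, 4.60 to 19.6 over lola[E76] and 31.3 to 37.6 over nerfin-1[159] libraries, so that they were highest where Col4a1 was. Most of that sum was Apoltp, a lipoprotein, at 11.4 ± 3.57 CPM for WT and 28.1 ± 1.43 for nerfin-1[159] clones. It was not called against WT (1.31 ± 0.42, edgeR adjusted p = 0.0505), but was by DESeq2 (adjusted p = 0.0438) and limma voom (adjusted p = 0.0135). Against lola[E76] clones it was higher by 1.66 ± 0.43 (log2, SE; edgeR adjusted p = 0.0108; 2.34 without lola[E76] replicate 2). In lola[E76] clones 0 of the 2 tested fat body markers differed from WT by edgeR, DESeq2 or limma voom, nor at an unadjusted edgeR p under 0.05. The larval serum protein gene Lsp1alpha was at 0 in all libraries. Of the 8 markers, 5 had no count over the WT group, 4 over lola[E76] and 1 over nerfin-1[159]. Lsp1gamma, another larval serum protein gene, had 0, 0 and 1 counts for WT, 2, 2 and 0 for lola[E76] and 8, 0 and 7 for nerfin-1[159]. Lsp2 had 10 counts, all in nerfin-1[159] replicate 3, and Lsp1beta 7 counts in lola[E76] replicate 3 and 5 in nerfin-1[159] replicate 3. The part of fat body RNA in the rise of Col4a1 was not tested.

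The 10 glial markers summed to 154.8 to 171.5 CPM over WT, 176.3 to 257.5 over lola[E76] and 180.2 to 203.6 over nerfin-1[159] libraries, highest in lola[E76] replicate 1. Of 8 tested, wrapper, a glial surface protein, rose in lola[E76] clones (3.95 ± 0.81, log2, SE; edgeR adjusted p = 0.00442; 4.61 without WT replicate 3), where 3.58% of all tested genes were called higher. wrapper passed the filter only through the lola[E76] libraries, so its call is no support. In nerfin-1[159] clones none rose by edgeR (5.66% of all tested genes), against 1 at an unadjusted p under 0.05 and 1 by DESeq2 or limma voom. This was Eaat1, at 0.99 ± 0.32 (log2, SE, edgeR adjusted p = 0.0539), its libraries lying wholly above WT (14.9% of all tested genes). Between the mutants (15.5% of all tested genes called), Eaat1 was higher in nerfin-1[159] clones (1.16 ± 0.33, edgeR adjusted p = 0.018). There moody (-1.50 ± 0.49, edgeR adjusted p = 0.0466) and wrapper were lower, the latter again no support. The calls of Eaat1 and moody ended with some libraries left out. The median over the 8 was -0.02 for lola[E76] and -0.01 for nerfin-1[159] minus WT, with 3 at an unadjusted edgeR p under 0.05 in lola[E76] clones. These were wrapper, moody (1.22 ± 0.48, log2, SE; edgeR adjusted p = 0.165) and nrv2 (0.36 ± 0.17, edgeR adjusted p = 0.246), all higher. The lola[E76] libraries lay wholly above WT for moody and for nrv2 (12.7% of all tested genes). The glial factor repo had 30, 17 and 27 counts for WT, 0, 1 and 31 for lola[E76] and 15, 25 and 13 for nerfin-1[159]. It was at -1.21 ± 1.06 for lola[E76] minus WT (edgeR adjusted p = 0.622), but was called lower without lola[E76] replicate 3 (-5.30, edgeR adjusted p = 0.0219). Gli, gliotactin, had 10, 6 and 22 counts for WT and 0, 5 and 3 for lola[E76], wholly below WT (12.1% of all tested genes) without passing the test (-2.14 ± 1.15, edgeR adjusted p = 0.34). The 8 muscle markers summed to 26.2 to 34.9 CPM over WT, 118.9 to 194.6 over lola[E76] and 55.4 to 95.1 over nerfin-1[159] libraries. Of 6 tested, up (5.67 ± 0.47, edgeR adjusted p = 5.36e-07) and Mlc2 (4.80 ± 0.75, edgeR adjusted p = 0.000368, and adjusted p = 0.0685 with limma voom), which encode parts of the contractile fibre, rose in lola[E76] clones (3.58% of all tested genes called higher), as LanB1, SPARC and Ndg were high there. up and Mlc2 passed the filter only through the lola[E76] libraries, so their calls are no support. bt, a giant muscle protein, rose in nerfin-1[159] clones (1.64 ± 0.27, edgeR adjusted p = 0.000302). The muscle myosin Mhc had 5, 0 and 0 counts for WT, 11, 2 and 0 for lola[E76] and 4, 0 and 0 for nerfin-1[159]. The part of glial or muscle RNA in the sheet genes was not tested. The 5 tracheal markers summed to 7.58 to 8.10 CPM over WT, 0 to 3.35 over lola[E76] and 2.40 to 5.77 over nerfin-1[159] libraries, too few counts for any to be tested.

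The 5 neuroblast markers, genes of neural stem cells, ordered the genotypes as Col4a1 did. They summed to 77.0 to 253.4 CPM over WT, 354.8 to 414.3 over lola[E76] and 915.1 to 1055 over nerfin-1[159] libraries, and edgeR called 3 and 5 of them higher (3.58% and 5.66% of all tested genes). In lola[E76] clones DESeq2 called 2 and limma voom 3, and the edgeR call of mira, an adaptor of neuroblast division (1.23 ± 0.32, edgeR adjusted p = 0.0216), ended with DESeq2 (adjusted p = 0.135), in a fit on these 2 groups (adjusted p = 0.0578) and without lola[E76] replicate 2 or 3 (adjusted p up to 0.0593). WT replicate 1 had both the lowest neuroblast sum and the fewest Col4a1 counts of the WT libraries. The 5 neuronal markers summed to 7185 to 8648 CPM over WT, 6270 to 6753 over lola[E76] and 4683 to 5562 over nerfin-1[159] libraries, where edgeR called 1 and 4 of them lower (2.91% and 6.27% of all tested genes). The part of these marker sums in the level of Col4a1 was not tested.

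Lola.N peaks were then examined at each gene. The authors' lists held 4676 peaks in N1 and 4544 in N2, each with the authors' score, whose median was 2.45 and 1.86. Gene positions came from a table of Release 6 of the fly genome, and the peak files name no build, so distances assume that release. A peak shared by both replicates lay within the gene or 1 kb of it for 6 of the 9 genes (Col4a1, vkg, LanB1, trol, SPARC and Ppn). The same held for 19.4% of all genes and for 28.3% of the genes tested for RNA. A longer gene has more room for a peak, the 9 genes are 2.76 to 75.0 kb long, and none of the shares of all genes given here was matched for length. LanA, LanB2 and Ndg had no shared peak in that window. Col4a1, LanB1 and SPARC, which rose in lola[E76] clones, and Ppn, at 0 counts in WT, had such a peak, as did vkg and trol, which were not called. With peaks at or above the median score of their list the number was 4, vkg and trol no longer counting, against 10.5% of all genes. It stayed at 6 with the gene body alone (13.7% of all genes), with 1 kb around either gene end (15.8%) and with an overlap of 0.5 of the shorter peak (18.7%). It was 7 with a window of 5 kb, which adds Ndg (35.1%), and, with LanA added, with peaks of either replicate (32.3%), of N1 alone (26.6%) or of N2 alone (26.1%).

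**Figure D5:**
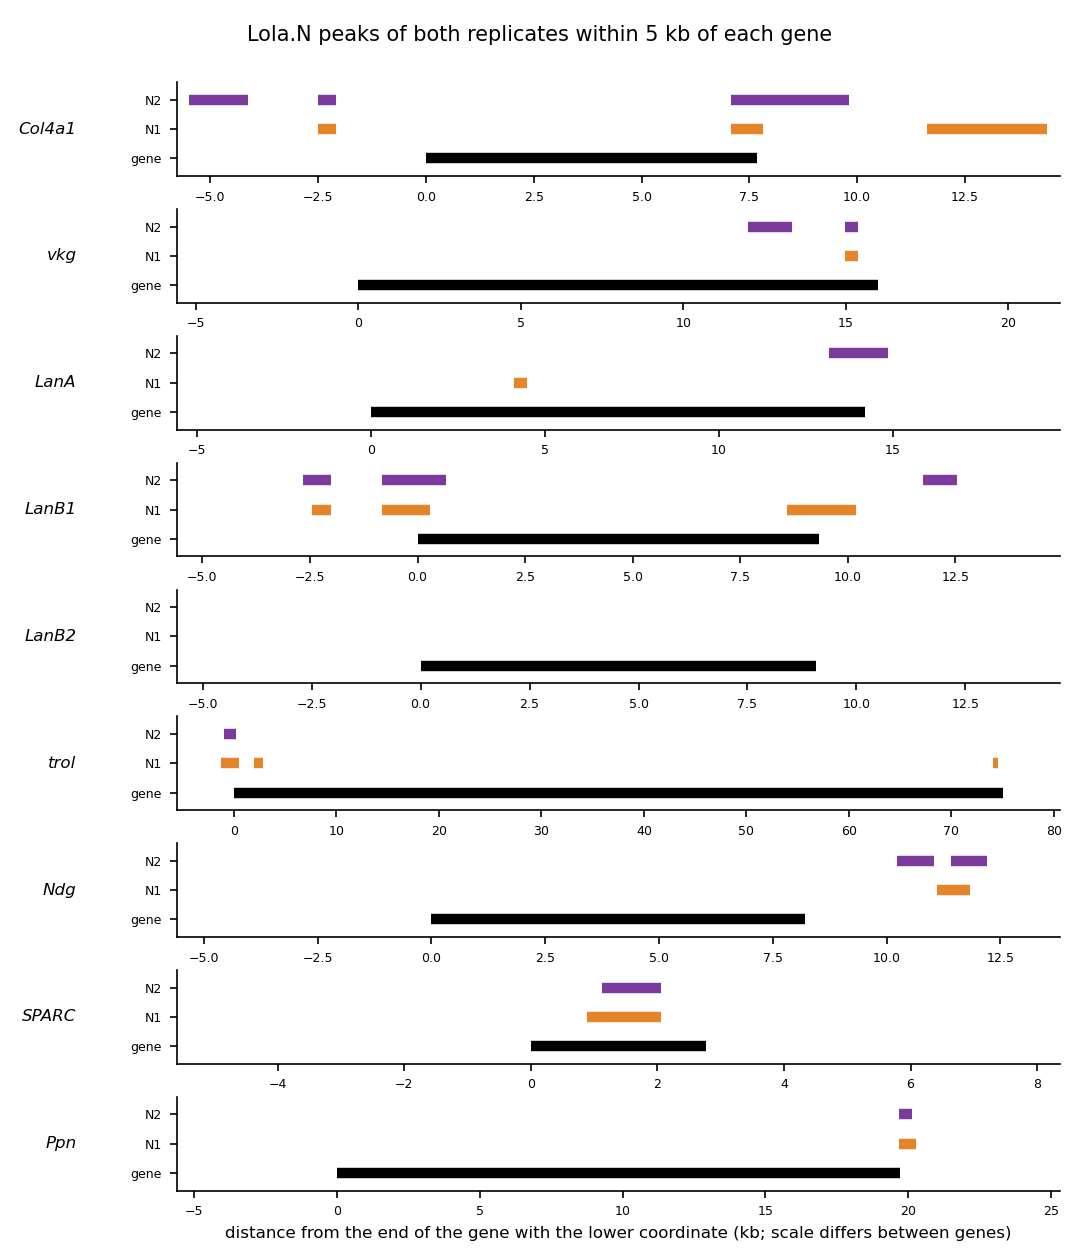
Peaks of Lola.N in N1 (orange) and N2 (purple) within 5 kb of each gene (black), by distance in kb from the end of the gene with the lower coordinate, with a scale for each gene. Peaks of both replicates coincide at Col4a1, vkg, LanB1, trol, SPARC and Ppn, and LanB2 has none within 5 kb.

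Among the shared peaks at these genes, the peak of SPARC, a short gene of 2.76 kb, ranked highest by score in both lists. It lay inside the gene at 3R:26870129-26871293 in N1, with a score of 4.54 that ranked 403 of 4676 (the top 8.62%). In N2 it lay at 3R:26870366-26871293 with a score of 3.35, rank 527 of 4544 (the top 11.6%). Both ended 0.70 kb short of the upper end of the gene. Rb97D, 0.13 kb beyond that end, was at -0.32 ± 0.18 in lola[E76] minus WT (log2, SE, edgeR adjusted p = 0.373). His2Av, the histone variant gene 0.02 kb from SPARC on its other side, was at 0.11 ± 0.15 in lola[E76] minus WT (log2, SE; edgeR adjusted p = 0.78).

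At LanB1 a peak covered the lower end of the gene, at 2L:7810605-7811723 in N1 (score 4.53, the top 8.79%) and at 2L:7810605-7812105 in N2 (score 2.57, the top 26.6%). A further shared peak lay 2.01 kb beyond that end. Cdc14, 0.73 kb away on that side, was not called in lola[E76] clones (-0.45 ± 0.37, log2, SE; edgeR adjusted p = 0.592).

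Col4a1 and vkg are neighbours on 2L, 1.42 kb apart, and are known to be transcribed away from each other. No peak of either list lay in the stretch between them. At Col4a1 a peak covered the end away from vkg, at 2L:5036672-5037415 in N1 (score 3.85, the top 17.3%) and 2L:5036672-5039419 in N2 (score 2.09, the top 40.7%). Given that direction of transcription, this is the 3′ end of Col4a1. SP555 lies 0.43 kb beyond it and had 0 counts in every library. In N2 the peak reached 9.81 kb from the lower end of Col4a1, a gene of 7.67 kb, and so past the near end of SP555. At vkg a peak of identical bounds in both replicates, 2L:5027115-5027525, lay inside the gene 0.67 kb from the end that faces Col4a1 and 2.08 kb from Col4a1, with scores of 2.13 (the top 61.6%) and 2.01 (the top 43.9%). Both genes of the pair thus carried a shared peak. SelT, 0.02 kb beyond vkg, was not called in either mutant (edgeR adjusted p = 0.786 and 0.795).

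At trol, which spans 75 kb, the shared peak covered the lower end, at X:2469203-2470952 in N1 (score 2.07, the top 63.5%) and X:2469446-2470637 in N2 (score 2.19, the top 36.8%). At Ppn it covered the upper end, at 3R:28540323-28540922 in N1 (score 2.72, the top 40.9%) and 3R:28540323-28540778 in N2 (score 2.19, the top 36.8%). CG31051, 0.15 kb from the other end of Ppn, rose by 0.80 ± 0.23 in lola[E76] clones (log2, SE; edgeR adjusted p = 0.0406) and fell by 1.15 ± 0.24 in nerfin-1[159] clones (edgeR adjusted p = 0.00292). LanA had a peak of N1 alone at 3L:6207938-6208319 and a peak of N2 alone at 3L:6216994-6218686, LanB2 had none within 5 kb in either list, and the nearest shared peak of Ndg lay 2.91 kb from the gene in N1 and 3.2 kb in N2. Ndg, the gene detected in lola[E76] clones and absent from WT counts, thus carried no shared peak within 1 kb.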

How the data were processed

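The authors deposited raw counts per gene, for which Subread, featureCounts and limma are named in the submitters' processing notes. QuantSeq libraries came from 33000 to 105000 sorted cells each, or 15 to 70 ng of RNA, per the labels. The sources used here give no version, genome build, annotation or counting strand, so reads of overlapping or antisense genes cannot be separated. Each deposited peak list gives the authors' score per peak, on a scale that no source names. Per the file names, calling was against Dam with a false discovery rate of 0.01. Dam-only samples were not analysed here.

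Of 17633 genes, 7451 passed filterByExpr in edgeR 4.0.16 (R 4.3.3), including 8 of the 9 described. Counts were scaled by TMM, and genotype means were fitted by quasi-likelihood over all 9 libraries, with two-sided tests at a Benjamini-Hochberg adjusted p of 0.05 over all tested genes. The script was tested on simulated data. CPM use the TMM-scaled library size. A gene at 0 in WT was set against a floor of 3 counts over the group, and bounds cover counting error only. Alternatives used DESeq2 1.42.0, limma voom (3.58.1), other filters and scalings, a replicate block, and each library left out. Replicate numbers did not pair samples: deviations of same-numbered libraries correlated at -0.0564 to 0.0232. No library duplicated another (chi-square per degree of freedom at least 10.3).

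Peaks counted as shared when intervals of both replicates overlapped by at least 1 base. The gene table (Release 6) gives no strand, so either gene end was used, and it held 17600 of the genes. Last peaks on 3R lie at 32.08 Mb. Positions rest on GATC sites, which limit resolution.

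Members and lists were chosen with earlier results of these data known. Of 110 list entries 108 matched by symbol and 2 by synonym. The 9 members are always named, with nerfin-1, up to 3 called genes with the smallest p per list and comparison, given for the marker lists of other cells only where they touch a result, and the 5 genes most like Col4a1 and vkg. Neighbouring genes and lola, wb, Mp, Hml, crq, PPO2, Lsp1gamma, Lsp2, Lsp1beta, repo, Gli, moody, nrv2, mira, Mhc, Plod, prtp and Tango1 were chosen after their values were seen. No sequence is shown.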

Additional observations from a re-analysis of the deposited data

How the results depend on the processing

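Over the 8 tested genes and 3 comparisons, every call against WT of Col4a1, LanB1 and SPARC in lola[E76] clones and of Col4a1 in nerfin-1[159] clones held in all 17 alternatives. Genes called for lola[E76] minus WT numbered 484 and 315 to 497 with a library left out, the lowest without WT replicate 1 and without WT replicate 2 (315 each, 262 called in both). For nerfin-1[159] minus WT, 1 gene of the sheet was called in place of 2 with the filter of 10 CPM in 3 libraries and in the fit on the 2 groups, both of which left Ppn untested. With replicate number as a block, 431, 820 and 1080 genes and 4, 2 and 4 of the sheet genes were called in the 3 comparisons. Samples share only a number, since just 1 of 9 libraries was most similar to one of its own number.

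Signs turned only for values that were never called. For lola[E76] minus WT, vkg was at -1.47 with limma voom and -0.41 with the replicate block, and ranged from -2.28 (without lola[E76] replicate 1) to 1.03 with a library left out. LanA ranged from -0.51 to 0.99, at -0.04 without WT replicate 1 and -0.09 without WT replicate 2. For nerfin-1[159] minus WT, vkg ranged from -0.50 to 0.44 (without WT replicate 2) and SPARC from -0.26 (without nerfin-1[159] replicate 3) to 0.63. Between the mutants, vkg was at 1.34 with limma voom and ranged from -1.17 to 2.04 (without lola[E76] replicate 1), trol from -0.21 (without nerfin-1[159] replicate 1) to 0.20, and Ppn from -0.90 to 0.11 (without nerfin-1[159] replicate 3). The cause was not tested. The Col4a1 to vkg log2 ratio ranged from 5.51 to 6.45 with a library left out and was 5.82 with 0.5 added to each count. Genes with a shared peak numbered 4 to 7. Low counts limit vkg, LanA, Ndg and Ppn.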
